A study of Rattus norvegicus with 2 samples.

Results

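Proteases that break down the bone matrix or work inside lysosomes, and the inhibitors that hold some of them back, were followed through the transcript models that were assembled from rat femurs. The members were chosen by gene name alone, ignoring the suffixes that mark a gene as predicted or mapped, and each carried the name of a cathepsin (Cts), a matrix metalloprotease (Mmp), an ADAM or ADAMTS metalloprotease, or a tissue inhibitor of metalloproteases (Timp), with Ctsk, Mmp8 and Mmp9 left out. The rule found 41 of the 12567 named known genes, with 121 of their 38614 transcript models: 10 cathepsins, 9 MMPs, 7 ADAMs, 12 ADAMTSs and 3 TIMPs. Every member was a single locus, none was on the list of 1507 new genes, and all 41 lay on the chromosome where the current annotation places the gene of that symbol. In the annotation, 17 of the 41 names still carried the ending for a predicted gene, a share that was not counted over all named genes.

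The RNA came from femurs of female Wistar rats of wild-type genotype after bilateral ovariectomy (OVX, n = 1 labelled sample) or a sham operation (SHAM, n = 1 labelled sample), both labelled 16 weeks, a time that differs from the feeding period in the methods. The OVX sample is also called old and the SHAM sample young, with no age given. Ovariectomy removes the main source of estrogen and is a standard model of bone loss after the menopause. The femur was frozen and ground, with no statement on whether marrow or attached tissue was removed, and the methods give more rats per group than the labels do. The annotation describes the whole series: it holds positions and classes of models and no level, count or coverage for either sample, so the depth is unknown and OVX could not be set against SHAM. Its 43391 models come from 2 assemblies, called first and second below from their numbering, and neither carries the name of a group or a rat. Positions of models are printed as deposited: the processing notes name the build rn4, but the sequence names in the annotation are not those of rn4, so the build is uncertain. Of 15 matrix substrates of these proteases on a list, 13 were found, all 13 in both assemblies (76.5% of all named genes) and 9 as a complete reference chain common to both (20.1% of all named genes), among them Col1a1 with 51 exons and Ibsp with 7. Col1a2, Col2a1, Acan and Vcan were found without a full chain.

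Cathepsins are mostly cysteine proteases of the lysosome, with cathepsins D and E as aspartic and cathepsin G as serine exceptions. MMPs, ADAMs and ADAMTSs share a zinc-dependent catalytic domain: MMPs are secreted or held on the membrane and cleave collagen, gelatin and other matrix proteins, ADAMs are mostly membrane proteins that shed the outer parts of receptors and growth factors, and ADAMTSs are secreted and act on proteoglycans and procollagens. TIMPs bind the active site of many, but not all, of these metalloproteases and block it. In bone, osteoclasts use acid proteases in the resorption pit and osteoblast-lineage cells use MMPs to clear and remodel unmineralised matrix.

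The stretches before the transcription start of 4 members with a full reference chain are shown because they differ in the motifs found near the start. They are the 250 bases before the start in the GRCr8 build of RefSeq, 5' to 3' on the strand of the gene, with motif letters in capitals. Only the positions on these 4 lines are those of GRCr8.
Ctsd, chr1:206968822-206969071, minus strand: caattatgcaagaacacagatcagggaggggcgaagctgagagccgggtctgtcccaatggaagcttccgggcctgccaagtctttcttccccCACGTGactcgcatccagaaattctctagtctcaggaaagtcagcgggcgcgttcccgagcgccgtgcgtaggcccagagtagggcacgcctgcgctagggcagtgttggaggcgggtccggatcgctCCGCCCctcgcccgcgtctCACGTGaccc
Ctsg, chr15:33907597-33907846, minus strand: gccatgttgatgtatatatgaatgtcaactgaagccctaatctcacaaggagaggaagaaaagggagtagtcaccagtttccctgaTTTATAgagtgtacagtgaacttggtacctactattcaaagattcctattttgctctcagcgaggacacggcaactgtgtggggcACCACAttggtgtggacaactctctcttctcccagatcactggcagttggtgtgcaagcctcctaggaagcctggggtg
Mmp13, chr8:12782579-12782828, plus strand: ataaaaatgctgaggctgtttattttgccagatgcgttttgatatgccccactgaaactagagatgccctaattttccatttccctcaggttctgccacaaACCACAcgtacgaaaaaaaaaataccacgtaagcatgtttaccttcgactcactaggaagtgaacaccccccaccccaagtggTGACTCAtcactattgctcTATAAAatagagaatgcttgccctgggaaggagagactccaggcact
Timp3, chr7:19459559-19459808, minus strand: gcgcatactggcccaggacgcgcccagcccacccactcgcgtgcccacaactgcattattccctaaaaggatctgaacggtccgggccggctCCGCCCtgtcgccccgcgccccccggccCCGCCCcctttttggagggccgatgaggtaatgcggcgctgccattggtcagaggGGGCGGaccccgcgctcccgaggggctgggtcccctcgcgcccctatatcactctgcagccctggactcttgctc
The capitals mark matches to any of 5 motifs. The AP-1 motif was searched as TGANTCA. The TATA box was searched as TATAAA. The E-box of the lysosomal regulators was searched as CACGTG. The GC box of the Sp1 factors was searched as GGGCGG. The Runx motif was searched as TGTGGT. All were searched on both strands, and the motifs and the 4 genes were chosen after the sequences had been seen. None of the marked matches overlap in these 4 stretches. The AP-1 letters stood at -66 and the TATA letters at -47 of Mmp13, with the Runx letters on the other strand at -149. Ctsd had E-box letters at -157 and -10 and a GC box on the other strand at -29. Ctsg had TATA letters at -164 and Runx letters at -79, both on the other strand. Timp3 had GC box letters at -75 and, on the other strand, at -158 and -130, and it held 23 CG pairs. Ctsd held 22, Mmp13 5 and Ctsg 2, against a median of 5 over all promoters.

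A promoter was at hand for 28 of the 41 members. GC box letters occurred in 18 of the 28 (64.3%) and in 30.5% of all 33469 promoters of the same length. Members were counted by gene and the background by promoter. That background was not limited to the named known genes used elsewhere, so the shares are not strictly alike. The AP-1 letters occurred in 1 of the 28, Mmp13, and in 6.34% of all promoters. E-box letters were found in 3 members (Ctsd, Ctsf and Adamts17) and in 5.59% of all promoters. TATA letters were found in 5 members (Adamts1, Adamts7, Ctsg, Ctss and Mmp13) and in 12.9% of all promoters. They lay on the strand of the gene in Adamts1 (-70) and Mmp13 (-47). In Adamts7 (-18), Ctsg (-164) and Ctss (-238) they lay on the other strand. Runx letters were found in 3 members (Ctsg, Ctsl and Mmp13) and in 14.5% of all promoters. These matches describe letters in a fixed window and not binding.

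By the classes in the annotation, a model has a full reference chain when all its splice junctions equal those of a transcript in the reference annotation, and is a contained fragment when it covers only part of one. A partly matching model shares splicing with a reference transcript but is neither of these. The single-exon Adam6 also carries the class of a full chain, although it has no junction to compare. With models of 2 or more exons only, 14 of 40 members (35%) had a full chain. For a gene in both assemblies, a model is called shared when the annotation records it once for both. Of the 121 models of the members, 19 had a full chain (15.7%), 79 were contained fragments (65.3%) and 23 were partly matching models (19.0%). The shares over all models of named genes were 15.4%, 56.1% and 25.6%. None of the members' models fell in another class, against 2.89% over all named genes. Of the 121 models, 2 had a single exon (1.65%), against 2.98% over all named genes.

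Of the 41 members, 32 (78.0%) had transcripts in both assemblies, against 76.5% of all named known genes. A transcript shared by both assemblies was found for 13 members (31.7%), against 30.8%. A full reference chain was found for 15 members (36.6%), against 38.6%, and one shared by both assemblies for 8 (19.5%), against 20.1%. As a whole the members were thus near the background in each of these shares, and the families differed from each other in the counts. No test of a family was made, because the members were chosen by name with results of these data known.

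**Figure D1:**
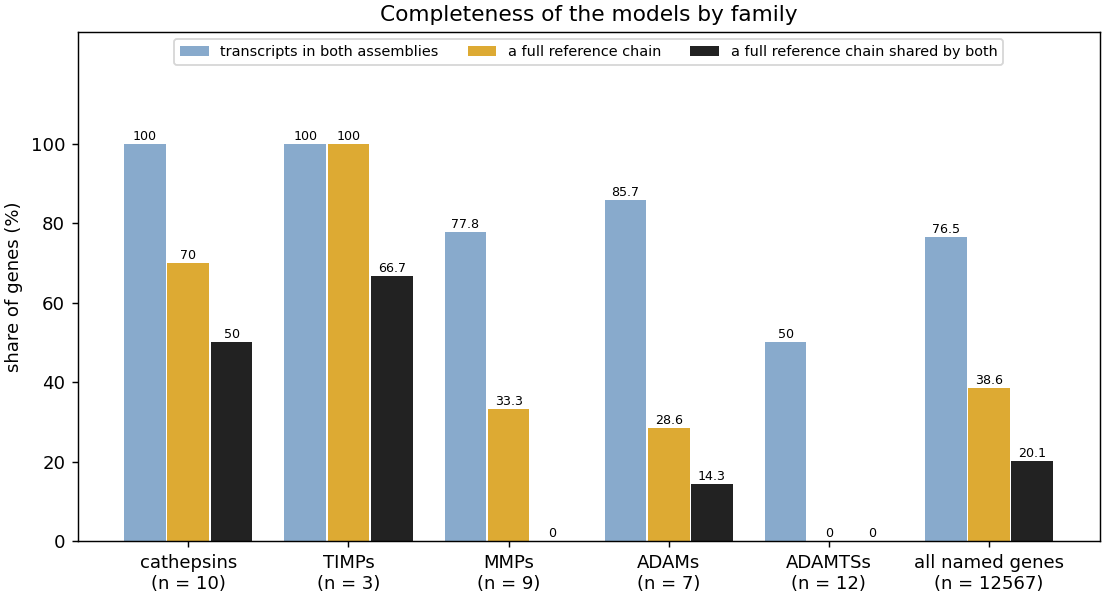
Share of genes (%) with transcripts in both assemblies, with a full chain, and with a full chain common to the assemblies, for each family and for all 12567 named known genes. The full chain was found for 7 of 10 cathepsins and 3 of 3 TIMPs and for 0 of 12 ADAMTSs.

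All 10 cathepsins had transcripts in both assemblies, 7 had a full reference chain and 5 shared one between the assemblies. The shares of all named genes were 76.5%, 38.6% and 20.1%. The longest models of the family had a median of 1509 bp, against 1000 bp over all named genes. Of the 74 distinct splice junctions of the cathepsins, 63 (85.1%) were in both assemblies, against 53.7% of the junctions of all named genes.

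Cathepsin H, an aminopeptidase of the lysosome, and cathepsin Z, a carboxypeptidase, each had a single model that both assemblies shared. The model of Ctsh (XLOC_008511, chromosome 8, 90151971 to 90170963, plus strand) had 12 exons and 1595 bp. The model of Ctsz (XLOC_004376, chromosome 3, 162398323 to 162409163, minus strand) had 6 exons and 1423 bp. For both genes every junction was therefore common, 11 for Ctsh and 5 for Ctsz. The exons of Ctsz overlapped those of rCG_40850, a gene of 15 exons on the opposite strand, by 48 bp at the 3' end of Ctsz.

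Cathepsin C trims the serine proteases of granulocytes, cathepsin G among them, into their active form. Ctsc (XLOC_000484, chromosome 1, 140327826 to 140359843, plus strand) had full chains of 7 exons and 2469 bp and of 5 exons and 1079 bp, both shared by the assemblies. The serine protease Ctsg (XLOC_013757, chromosome 15, 29505835 to 29512047, minus strand) had a full chain of 5 exons and 1006 bp and a partly matching model of 7 exons and 1247 bp, again both shared. The partly matching model ran past the 3' end of the full chain. The activator and its substrate thus belonged to the 6 members whose junctions were all found in both assemblies, with Ctsh, Ctsz, Timp2 and Timp3. Over all named genes in both assemblies with a junction this held for 17.5%, and for 18.8% of the members.

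Cathepsin D, the main aspartic protease of lysosomes, had a shared full chain of 9 exons and 1997 bp (XLOC_001769, chromosome 1, 195146344 to 195158243, minus strand). A partly matching model of 9 exons (1867 bp) in the first assembly ended at the same base and added 1 junction to the 8 of the full chain. Cathepsin E, an aspartic protease of immune and epithelial cells, had its full chain of 10 exons (2096 bp) in the first assembly alone (XLOC_012366, chromosome 13, 43430439 to 43452931, plus strand). The second assembly held a partly matching model of 9 exons and 1345 bp and a fragment of 548 bp in a single exon, and 8 of the 9 junctions of Ctse were in both.

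Cathepsin F showed the opposite assignment. Its full chains of 14 exons and 1969 bp and of 5 exons and 890 bp stood in the second assembly alone, and the first held a fragment of 12 exons and 1303 bp (XLOC_000770, chromosome 1, 199692292 to 199698146, plus strand). All 11 junctions of that fragment were among the 13 of the full chain. A single-exon antisense model of 344 bp without a gene name lay over Ctsf on the minus strand in the first assembly, with 342 of its bases over exons of Ctsf. The nearest named gene, Actn3, lay 546 bp beyond Ctsf on the opposite strand. Whether reads were counted by strand is not given in the sources used here.

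Cathepsins L, S and W had no full chain. The endoprotease Ctsl (XLOC_014642, chromosome 17, 1746004 to 1751973, minus strand) was assembled as 2 fragments in each assembly, the longest of 826 bp in the second and of 691 bp in the first, with 4 of 7 junctions in both. Ctss, which trims the invariant chain in antigen-presenting cells, had a fragment of 4 exons and 878 bp shared by both, and 4 of 5 junctions were common (XLOC_002441, chromosome 2, 175619274 to 175645306, plus strand). Its nearest named neighbour was Ctsk, the collagen-degrading cathepsin of osteoclasts that the rule leaves out, 16716 bp away on the same strand. Ctsw, a cathepsin of cytotoxic lymphocytes, had 1 model of 207 bp in the first and 1 of 363 bp in the second assembly, with none of its 3 junctions in both. The current annotation lists 17 cathepsin symbols of this pattern, and no transcript stood under the names of Ctsa, Ctsb, Ctsj, Ctsm, Ctso, Ctsq and Ctsr. How many of all current symbols are absent by name was not counted, so such counts have no background, here or for the other families.

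All 3 TIMPs had a full reference chain, which both assemblies shared for 2 of them. Over all named genes these shares were 38.6% and 20.1%. Timp2, which also helps MMP14 to activate pro-MMP2, had a single shared full chain of 5 exons and 3337 bp (XLOC_011201, chromosome 10, 102101610 to 102150896, minus strand). Timp3, the TIMP that binds to the extracellular matrix, had a single shared full chain of 5 exons and 4402 bp, the longest model of any member (XLOC_007787, chromosome 7, 14760164 to 14810915, minus strand). Inside an intron of Timp3, on the same strand and with 0 bases of exon overlap, both assemblies held a single-exon model of 2979 bp that matched the reference gene rCG_48798. Timp1 (XLOC_016497, chromosome X, 1780568 to 1785295, minus strand) had a full chain of 6 exons and 869 bp in the second assembly and a fragment of 4 exons (388 bp) in the first, whose 3 junctions were among the 5 of the full chain. Syn1, a neuronal gene on the other strand that is known to host Timp1 in an intron, had its nearest model 5613 bp away. No transcript stood under the name of Timp4, the remaining symbol of 4 in the current annotation.

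**Figure D2:**
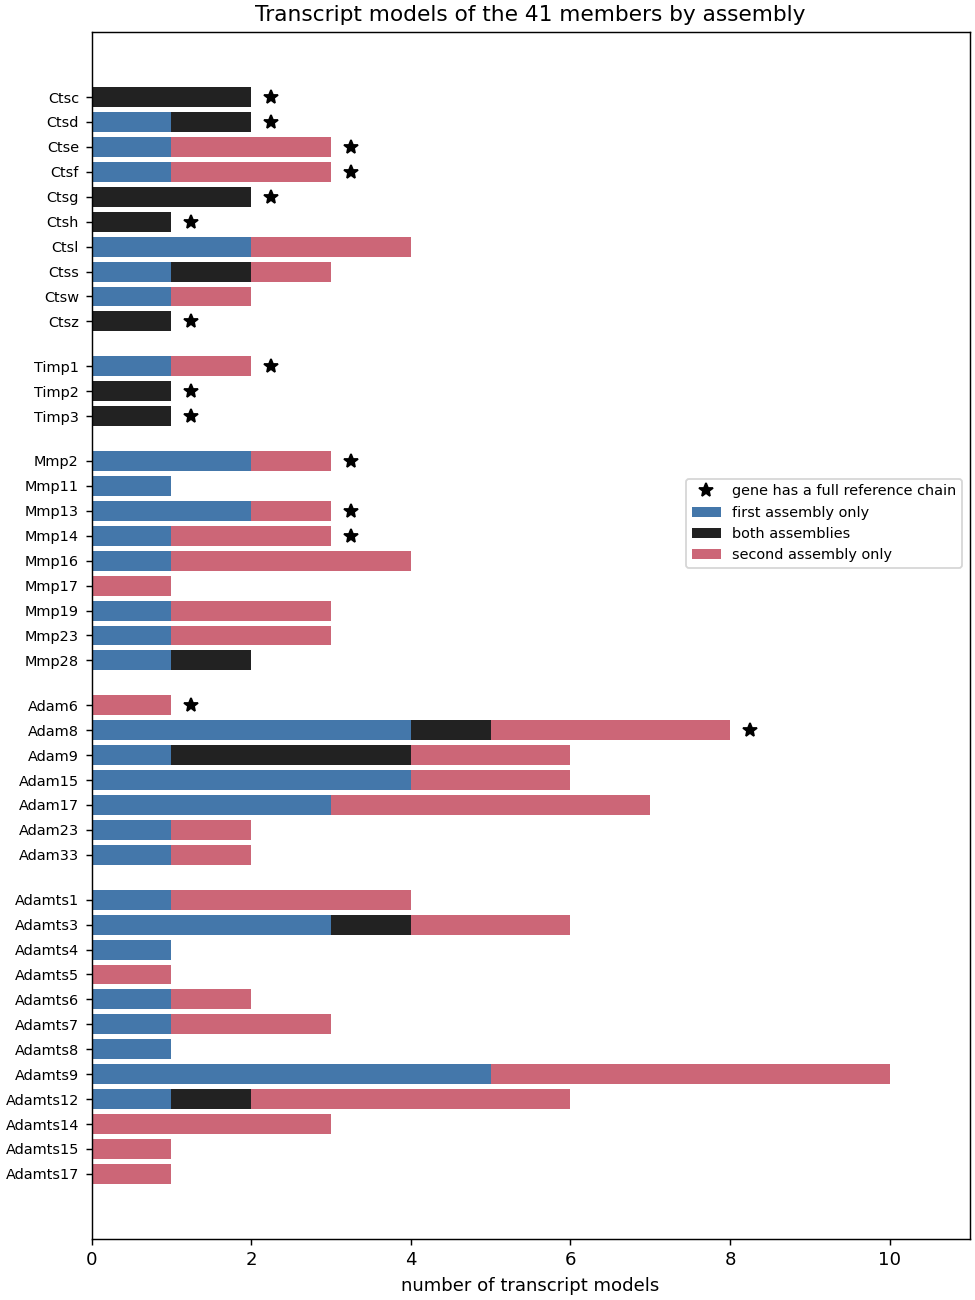
Number of transcript models of each of the 41 members (horizontal axis), split into models of the first assembly only, of both and of the second only, with a star for genes that have a full reference chain. Cathepsins and TIMPs had 1 to 4 models each, and Adamts9 had the most with 10, none of them shared.

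Of the 9 MMPs, 7 (77.8%) had transcripts in both assemblies, against 76.5% of all named genes. A full reference chain was found for 3 (33.3%), against 38.6%, each in 1 assembly alone. None of the 9 had a full chain in both, against 20.1% of all named genes. Mmp8 (10 exons, 2393 bp) and Mmp9 (13 exons, 3015 bp), which the rule leaves out, both had a shared full chain, so the count of 0 depends on leaving them out. The 3 were Mmp2, Mmp13 and Mmp14, a gelatinase, a collagenase and the membrane-bound enzyme that activates both.

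Mmp2 (XLOC_015584, chromosome 19, 14077766 to 14105839, minus strand) had a full chain of 13 exons and 3040 bp in the second assembly. The first assembly held it in 2 pieces, one of 10 exons and 1640 bp at the 5' end and one of 3 exons and 507 bp at the 3' end. Of its 12 junctions, 11 were in both, and the missing one was the junction between the pieces.

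Mmp13, collagenase 3 of osteoblasts and hypertrophic chondrocytes, was similar (XLOC_008222, chromosome 8, 6061437 to 6071732, plus strand). Its full chain of 10 exons and 2618 bp stood in the second assembly, and the first held pieces of 6 exons and 891 bp and of 3 exons and 323 bp. Of 9 junctions, 7 were in both. The 5' ends of the assemblies lay 31 bp apart and the 3' ends 2120 bp apart, since the first assembly held no model of the last exon. The AP-1 and TATA letters shown above precede the current RefSeq start of this gene.

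Mmp14, the membrane-type 1 enzyme, was reversed, with a full chain of 10 exons (3585 bp) in the first assembly (XLOC_013505, chromosome 15, 27470671 to 27481099, plus strand). The second assembly held pieces of 2 exons and 462 bp and of 8 exons and 3041 bp. Of 9 junctions, 8 were in both. Full chains of MMPs were thus not confined to either assembly.

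**Figure D3:**
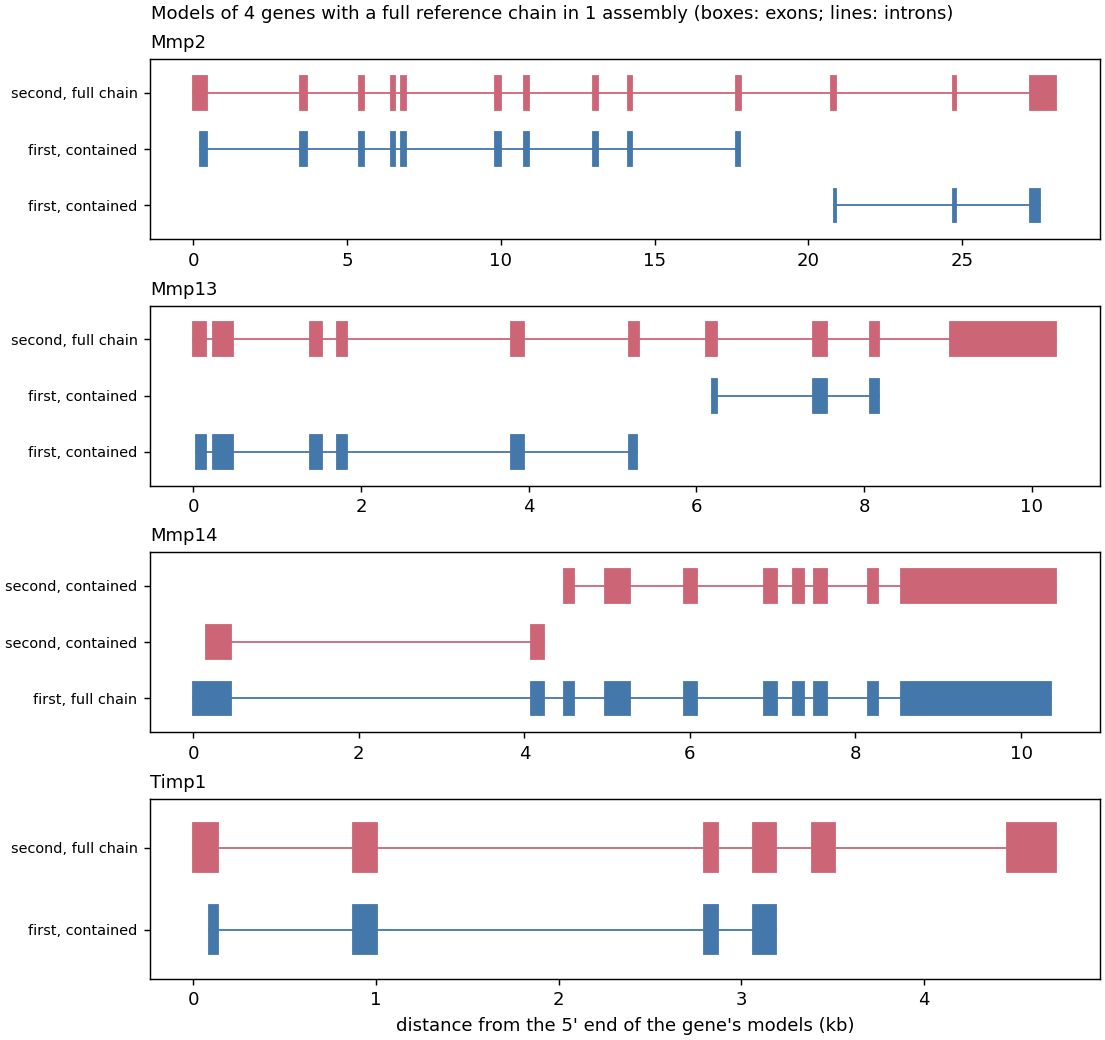
Exons (boxes) and introns (lines) of the models of Mmp2, Mmp13, Mmp14 and Timp1 against the distance from the 5' end of the models in kb, in 5' to 3' direction and coloured by assembly. In each gene 1 assembly held the full chain, and the other held contained pieces that followed the same exons.

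The other MMPs were assembled as parts. Mmp19 had the longest of these, a partly matching model of 8 exons (1248 bp) in the first assembly, and 3 of its 8 junctions were in both. Mmp16, another membrane-type enzyme, was spread over 231888 bp of chromosome 5 in 4 fragments of 235 to 551 bp, with 1 of 5 junctions in both. Mmp23 had 3 fragments of 223 to 415 bp with 1 of 5 junctions in both. Mmp28, also called epilysin, had a shared partly matching model of 2 exons and 329 bp, the only shared model among the 9 MMPs. Mmp11, stromelysin 3, was found as a fragment of 282 bp in the first assembly alone, and the membrane-type Mmp17 as one of 338 bp in the second alone. Of 21 MMP symbols in the current annotation outside the rule's exceptions, no transcript stood under Mmp1, Mmp1b, Mmp3, Mmp7, Mmp10, Mmp12, Mmp15, Mmp20, Mmp21, Mmp24, Mmp25 and Mmp27.

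Of the 7 ADAMs, 6 (85.7%) had transcripts in both assemblies, against 76.5% of all named genes. A full chain was found for 2 (28.6%), against 38.6%. Adam8, an ADAM of granulocytes, macrophages and osteoclast precursors, had 8 models (XLOC_001743, chromosome 1, 192469413 to 192495104, minus strand). A full chain of 3 exons and 771 bp was shared, and full chains of 7 exons and 1640 bp and of 8 exons and 1947 bp stood in the first assembly. Each of these chains equals a reference transcript, and the longest model, of 13 exons and 2196 bp, was a contained fragment. Of its 18 junctions, 13 were in both. Adam6 (XLOC_006783, chromosome 6, 130181040 to 130183593, plus strand), a sperm protein gene that lies in the immunoglobulin heavy chain locus in rodents, was a single exon of 2554 bp in the second assembly alone.

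The other 5 ADAMs had no full chain. Adam17, the sheddase that releases tumour necrosis factor, had 7 fragments over 47427 bp, 3 in the first and 4 in the second assembly (XLOC_006911, chromosome 6, 40160274 to 40207700, minus strand). The longest had 3 exons and 1574 bp, and 5 of 17 junctions were in both. Adam9 had 6 models, 3 of them shared, and 14 of its 17 junctions were in both, although its longest model had only 11 exons and 1326 bp. Adam15 had the longest model of any member without a full chain, 16 exons and 2071 bp in the second assembly, and 17 of 23 junctions were in both (XLOC_002930, chromosome 2, 168696299 to 168706668, minus strand). Adam33 had a fragment of about the same size in each assembly, 237 and 238 bp, with 1 of 3 junctions in both. Adam23, a neuronal ADAM without protease activity, had 2 fragments that did not overlap, of 595 bp in the first and 225 bp in the second assembly. Of 29 ADAM symbols in the current annotation, no transcript stood under 22: Adam1a, Adam1b, Adam2, Adam3a, Adam4, Adam5, Adam7, Adam10, Adam11, Adam12, Adam18, Adam19, Adam21, Adam22, Adam24, Adam25, Adam26a, Adam28, Adam30, Adam32, Adam34 and Adam34l.

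The 12 ADAMTSs had the smallest share of junctions in both assemblies of the 5 families. None had a full reference chain, against 38.6% of all named genes, and 6 (50%) had transcripts in both assemblies, against 76.5%. The longest models had a median of 541 bp, against 1000 bp. Of their 80 junctions, 19 (23.8%) were in both assemblies, against 53.7% over all named genes. In 6 of the 12, the models fell into 3 or more separate stretches that did not overlap, against 13.8% of all named genes and 8 of the 41 members.

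Adamts9, a proteoglycanase, had the most models of all members, 10 fragments and partly matching models, 5 in each assembly and none shared (XLOC_005173, chromosome 4, 114208462 to 114376780, minus strand). Its longest model had 8 exons and 1232 bp, and 11 of 25 junctions were in both. The procollagen N-proteinase Adamts3 had 6 models over 203375 bp, of which a fragment of 5 exons and 1226 bp was shared, and 7 of 14 junctions were in both (XLOC_012931, chromosome 14, 17596969 to 17800343, plus strand). Adamts14, a further procollagen N-proteinase, had 3 models of 216 to 612 bp in the second assembly alone. Adamts12 had 6 models over 290953 bp, the widest spread of any member, with 1 of 10 junctions in both.

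The aggrecanases, which cleave the proteoglycan of cartilage, were found in parts. Adamts5 had a single fragment of 4 exons and 1536 bp in the second assembly alone, the longest model of its family (XLOC_011507, chromosome 11, 24801874 to 24808965, minus strand). Adamts4 had a single fragment of 2 exons (240 bp) in the first assembly alone (XLOC_012498, chromosome 13, 83307268 to 83307610, plus strand). Adamts1 had 1 fragment of 796 bp in the first and 3 models of 264 to 432 bp in the second assembly, with 0 of 6 junctions in both (XLOC_011506, chromosome 11, 24734934 to 24741286, minus strand). The models of Adamts1 and Adamts5 lay 60587 bp apart on the same strand with no named gene between them. Aggrecan itself, under its older name Agc1, had 4 models over both assemblies and none with a full chain.

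Adamts8 and Adamts15 were also neighbours, 38250 bp apart on opposite strands of chromosome 8 with no named gene between them. Adamts8 had 1 partly matching model of 258 bp in the first assembly alone and Adamts15 1 fragment of 341 bp in the second alone. Adamts17 had 1 fragment of 215 bp in the second alone, the shortest of the longest models over all members. Adamts6 and Adamts7 had fragments in both assemblies, of 255 to 274 bp and 247 to 470 bp, and no junction in both. In the current annotation, 19 symbols follow the pattern: no transcript stood under Adamts10, Adamts13, Adamts16, Adamts18, Adamts19 and Adamts20, and Adamts2 was present only under an older name, which the rule does not take.

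**Figure D4:**
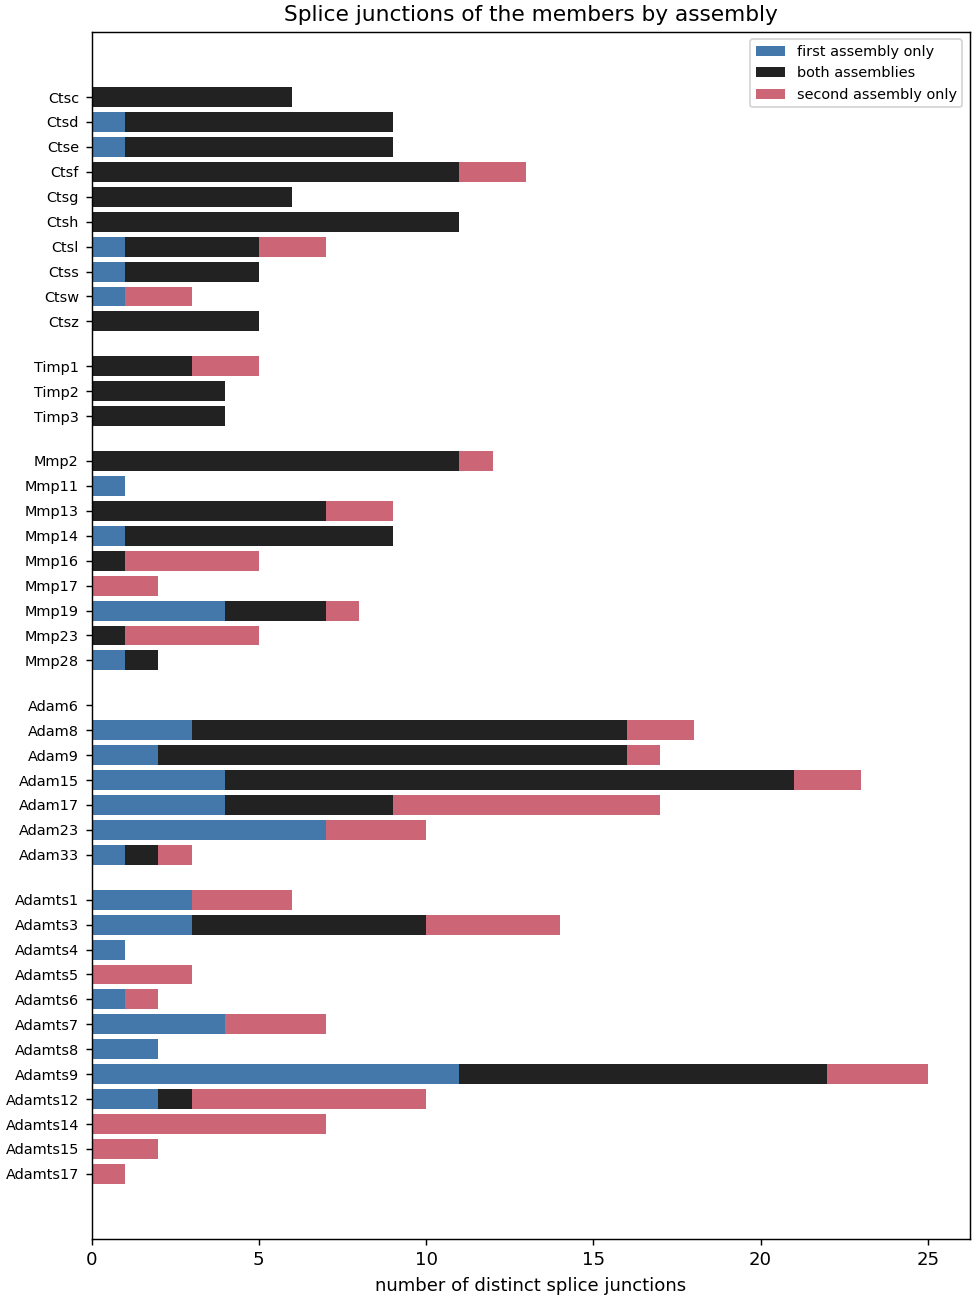
Number of distinct splice junctions of each member (horizontal axis), split into junctions of the first assembly only, of both and of the second only. Of the 308 junctions, 175 were in both, from 63 of 74 for the cathepsins to 19 of 80 for the ADAMTSs, and the single-exon Adam6 had none.

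Junctions gave a finer view than whole models. Over the 41 members 175 of 308 junctions (56.8%) were in both assemblies, against 53.7% over all named genes, whereas only 17 of the 121 models (14.0%) were shared, against 12.2%. The 5' ends of the assemblies lay within 100 bp of each other in 17 of the 32 members found in both. The 3' ends did so in 13. The distances between ends were not measured over all named genes, so these counts have no background. Of the 32, 19 had no shared model, and 5 had no junction in common (Adam23, Adamts1, Adamts6, Adamts7 and Ctsw). Over all named genes in both assemblies with a junction, 915 of 9142 had none in common, and the members' share was 15.6%. By exon bases, 59.1% of the members' exon sequence was covered in both assemblies, from 94.4% for the TIMPs and 86.3% for the cathepsins to 59.6% for the MMPs, 51.2% for the ADAMs and 23.8% for the ADAMTSs, against 55.2% over all named genes.

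The longest model was longer in the first assembly for 10 of the 32 members, longer in the second for 12 and equal for 10. Over the 9616 named genes in both assemblies the counts were 4163 longer in the first, 2643 longer in the second and 2810 equal. Of the 9 members in 1 assembly only, 3 were in the first (Adamts4, Adamts8 and Mmp11) and 6 in the second (Adam6, Adamts5, Adamts14, Adamts15, Adamts17 and Mmp17). Over all named genes, 1673 were in the first only and 1278 in the second only. A full chain was found in the first assembly for 10 members and in the second for 13, against 3941 and 3462 of all named genes.

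**Figure D5:**
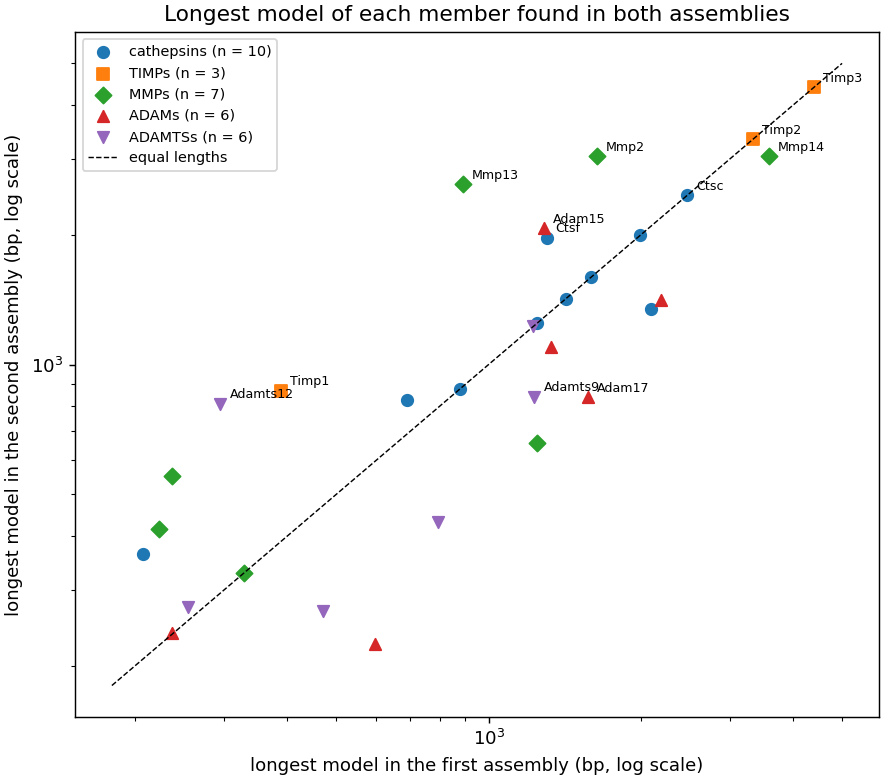
Longest model in the first assembly (horizontal axis, bp, log scale) against the second (vertical axis, bp, log scale) for the 32 members in both, with the line of equal lengths. Mmp2, Mmp13 and Timp1 lie above the line and Mmp14 below it, and Timp2, Timp3 and Ctsc lie on it.

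Members with a full chain had a median longest model of 2196 bp and lay within a median span of 11900 bp. The 26 members without one had 573 bp and 9228 bp. Both values were measured on the same models that set the split, so a difference in length is in part built in. The span is that of the models and not of the whole gene. The part of length and level in these differences was not tested, because the annotation gives no level.

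Genes that act with these proteases were described by lists. Of 11 inhibitors, 4 were found and 3 had a full chain shared by both assemblies, all of them cystatins, which block cysteine cathepsins: Cst3 (854 bp), Cstb (586 bp) and Cst7 (1093 bp). The broad protease trap A2m had 1 fragment of 257 bp in the first assembly alone. Of 9 activators and inducers, 5 were found, all in both assemblies, and 2 had a shared full chain: Lgmn, which processes cathepsins in the lysosome (14 exons, 1912 bp), and Bsg, which induces MMPs (7 exons, 1378 bp). Of 8 receptors and carriers, 5 were found in both assemblies and none had a full chain, among them Igf2r, which brings newly made lysosomal enzymes to the lysosome, with 15 models. Serpine2, a serpin that blocks serine proteases, had a shared full chain (9 exons, 2064 bp). The shares of all named genes, 20.1% for a shared full chain and 76.5% for both assemblies, are the background for these counts.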

How the data were processed

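Libraries were made from total RNA of rat femurs with the SMARTER mRNA-Seq kit per the labels. The submitters' processing notes name FastQC, HISAT2, StringTie, featureCounts and the build rn4, with versions and parameters not given in the sources used here. The deposited files hold start and end positions, exons and classes of models that the authors assembled with StringTie, plus a list of new genes. No score, count or level is in them. Positions are printed as deposited, 1-based. The sequence names are not those of rn4.

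Each of the 21 sequences was given the chromosome on which RefSeq places most of its gene names. The assembly of a model was read from the numbering, which runs over both strands and then again; 0 of the 4896 models recorded in 2 assemblies fell in the second run. Models were joined by gene name, and shares were set beside those of all named known genes. Junctions were compared by exact coordinates. Per-gene measures were checked on a simulated annotation. Its models were numbered in the order assumed here, so the check could not test whether that order holds in the deposited annotation. Members and lists were chosen with earlier results of these data known. Genes named are all TIMPs, the members with the most or longest models, those with a shared full chain, and a list of main proteases. The other members were named to account for all, with their values seen. Python 3.11.15, pandas 2.3.3, numpy 2.4.6, scipy 1.17.1 and matplotlib 3.10.9 were used.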

Additional observations from a re-analysis of the deposited data

How the results depend on the processing

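The number of members fell from 41 to 24 with names taken exactly as in the annotation and to 27 with contained models left out, both by construction. Without contained models the share in both assemblies was 48.1%, the share with a full chain 55.6% and the median number of models 1, since a gene then stays only if it has another model. With exact names, which drop the predicted genes, the share with a full chain was 54.2%. Leaving out the ADAMTSs, an alternative added after seeing the data, gave 89.7% in both assemblies. The other 31 of 38 values were called the same, by the exact 95% binomial interval of the share or 1.5 times the count or median. The share of all named genes in both assemblies (76.5% and 76.9%), also among them, was judged by a small difference instead. These bounds were wide and the alternatives reuse the same genes, so a value inside them says little. Without the ADAMTSs the share with a full chain was 51.7%, still inside bounds of 22.1% to 53.1%. With Ctsk, Mmp8 and Mmp9 included, 18 of 44 genes (40.9%) had a full chain. The coding length that models could hold was not run, because no protein lengths were used here, and neither was OVX against SHAM. No paired analysis was possible because the annotation gives no values by sample. Since depth is not known, a missing model says nothing of whether the gene was expressed, and a gene not found by name can stand under another.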
